A study of Mus musculus with 8 samples.

Results

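The cytosolic ribosome is built from a small and a large subunit, called 40S and 60S, and each of its proteins is encoded by its own nuclear gene. The ribosomal protein genes described here were the rows of the expression table with symbols of the form Rpl or Rps followed by a number, together with Rplp0, Rplp1, Rplp2 and Rpsa. This rule found 84 of 36333 rows, of which 52 belong to the 60S subunit and 32 to the 40S subunit. Their RNA levels in the ventral prostate were compared between 2 groups of 4 mice, hSKP2-KI and WT. WT stands for wild type. The paper names a strain only for the breeding, in which heterozygous knock-in females were mated to FVB/N wild-type males. It does not separately state the strain of the WT mice. In hSKP2-KI males, the human SKP2 coding sequence, joined through a P2A peptide, had been inserted by CRISPR/Cas9 into the first exon of the endogenous probasin gene Pbsn, whose androgen-dependent promoter is active in prostate epithelium. Each library was made from poly(A)-selected RNA of 1 mouse aged 12 months, and which of the knock-in lines gave the RNA is not stated.

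Ribosomal protein mRNAs are among the most abundant in growing and secreting cells, and their products are needed in nearly equal numbers. Most start with a C followed by a run of pyrimidines, the 5′ terminal oligopyrimidine (TOP) tract, through which mTORC1 and the RNA-binding protein LARP1 set their translation and stability together. The genes also have many processed copies in the mouse genome, intronless sequences made by reverse transcription of the mRNA. SKP2 is the F-box subunit of an SCF ubiquitin ligase, and MYC, which drives transcription of many ribosomal genes, is one of its known partners.

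Start sites are shown first, since a TOP tract is described for most of these mRNAs. Those of Rps27, Rps6, Rpl38 and Rps21 were taken because the genes come back below, and those of Rpl35 and Rpl15 for their long tracts. RefSeq start windows on GRCm38.p6, the build that the labels also give, could be matched for 64 of the 84 members. A TOP start was taken as a C exactly at an annotated start followed by at least 4 letters that are each C or T. It was present at a start of 14 of the 64 members (21.9%) and of 813 of all 27025 genes with a window (3.01%). Each line below runs 5′ to 3′ on the gene's own strand from 30 bases before the start to 20 bases from it on, and capitals mark the tract.
Rps27 (chr3:90213629-90213678, minus strand): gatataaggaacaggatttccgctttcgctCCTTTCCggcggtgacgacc
Rps6 (chr4:86857348-86857397, minus strand): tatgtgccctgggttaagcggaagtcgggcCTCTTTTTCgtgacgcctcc
Rpl38 (chr11:114668550-114668599, plus strand): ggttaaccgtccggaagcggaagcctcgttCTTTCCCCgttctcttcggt
Rps21 (chr2:180257349-180257398, plus strand): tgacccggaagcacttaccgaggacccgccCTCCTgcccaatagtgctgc
Rpl35 (chr2:39005112-39005161, minus strand): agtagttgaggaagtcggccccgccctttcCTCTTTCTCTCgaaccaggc
Rpl15 (chr14:18270967-18271016, minus strand): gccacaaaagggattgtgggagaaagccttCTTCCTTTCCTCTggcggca
The tract ran over 5 bases in Rps21 and 13 bases in Rpl15. The absence of a tract at an annotated start says only that these letters are not at that position.

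The promoters of Rpl35a and Rps18 are shown at greater length because these 2 members varied most in proportion to the others, as described below. The windows hold 250 bases before and 20 bases from the start on, and capitals mark the TOP tract and each CCGGAAG, a sequence bound by ETS-family factors, which was searched on both strands.
Rpl35a (chr16:33056232-33056501, plus strand): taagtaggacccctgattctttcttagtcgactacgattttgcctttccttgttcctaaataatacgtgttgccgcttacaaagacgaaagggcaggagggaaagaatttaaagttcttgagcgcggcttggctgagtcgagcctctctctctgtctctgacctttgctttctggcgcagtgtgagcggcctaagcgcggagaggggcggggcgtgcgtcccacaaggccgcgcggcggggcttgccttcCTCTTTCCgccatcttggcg
Rps18 (chr17:33955646-33955915, minus strand): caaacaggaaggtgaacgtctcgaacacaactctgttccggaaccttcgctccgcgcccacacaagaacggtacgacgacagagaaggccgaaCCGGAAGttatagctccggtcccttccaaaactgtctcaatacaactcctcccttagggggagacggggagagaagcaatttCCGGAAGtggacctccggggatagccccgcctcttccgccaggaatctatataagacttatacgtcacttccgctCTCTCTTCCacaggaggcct
Both genes thus had a TOP tract at an annotated start, CCGGAAG occurred 2 times in the Rps18 window, and it did not occur in the Rpl35a window shown. Over the full window of 250 bases before and 50 bases after a start, CCGGAAG was found at 26 of the 64 members (40.6%) and 9.93% of all genes. The E-box CACGTG, a letter sequence that MYC and other factors bind, was found at 6 of the 64 members (9.38%) and 8.09% of all genes. Such a match describes the letters and not the binding of a factor.

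The values of Skp2 and of the targeted gene Pbsn followed the labels. Skp2 lay between 37.3 and 60.6 TPM in hSKP2-KI and between 1.05 and 2.27 TPM in WT prostates, and how reads from the human insert were assigned to this mouse gene is not stated. Pbsn lay between 93.0 and 174 TPM in hSKP2-KI and between 3980 and 9232 TPM in WT prostates. TPM, a transcript abundance unit, divides the reads of a gene by transcript length and scales each library to the same total, so its depth is unknown. Sbp, Spink1 and Sbpl, the most abundant secretory genes of this lobe, took 40.4% to 45.8% of the TPM in WT mice and 32.1% to 34.3% in hSKP2-KI mice. With the total fixed, the TPM of other genes stands higher where these genes are lower, and over the 13080 tested genes the log2 fold change had a median of 0.23. The calls and fold changes of the members and lists are therefore also given after median-ratio scaling, which divides each library by the median ratio of its genes to their geometric mean over the samples and moved this median to -0.02.

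Most ribosomal protein genes were expressed at a high level, but their means ran from 0 to 3820 TPM. Of the 84 members, 34 had a mean above 1000 TPM, 40 had between 100 and 1000 TPM and 10 had less than 100 TPM, and the median member had 845 TPM. Rpl41, which encodes the smallest ribosomal protein, was the most abundant, at 4537, 3921, 4196 and 4168 TPM in the hSKP2-KI mice and 3973, 3159, 3009 and 3596 TPM in the WT mice. These ranges overlapped. Next came Rpl10, whose protein joins the 60S subunit late in its assembly, with a mean of 3555 TPM, Rplp1, an acidic stalk protein, with 3518 TPM, Rpl13 with 2175 TPM and Rps14 with 2041 TPM. The ranges of Rpl41, Rpl10 and Rplp1 over the mice overlapped, although Rpl41 stood above Rpl10 in every mouse except WT replicate 2. Differences between these genes were not tested. The filter for testing, 1 TPM or more in 4 or more of the mice, was passed by 80 members. The 4 that did not pass were Rpl3l, the paralog of Rpl3 known from skeletal and heart muscle, at 0.0575 to 0.759 TPM, Rpl32l at 0 to 0.615 TPM, Rpl39l at 0 to 0.0999 TPM, and Rpl10l, a paralog known from testis, which was listed at 0 in all 8 mice.

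**Figure D1:**
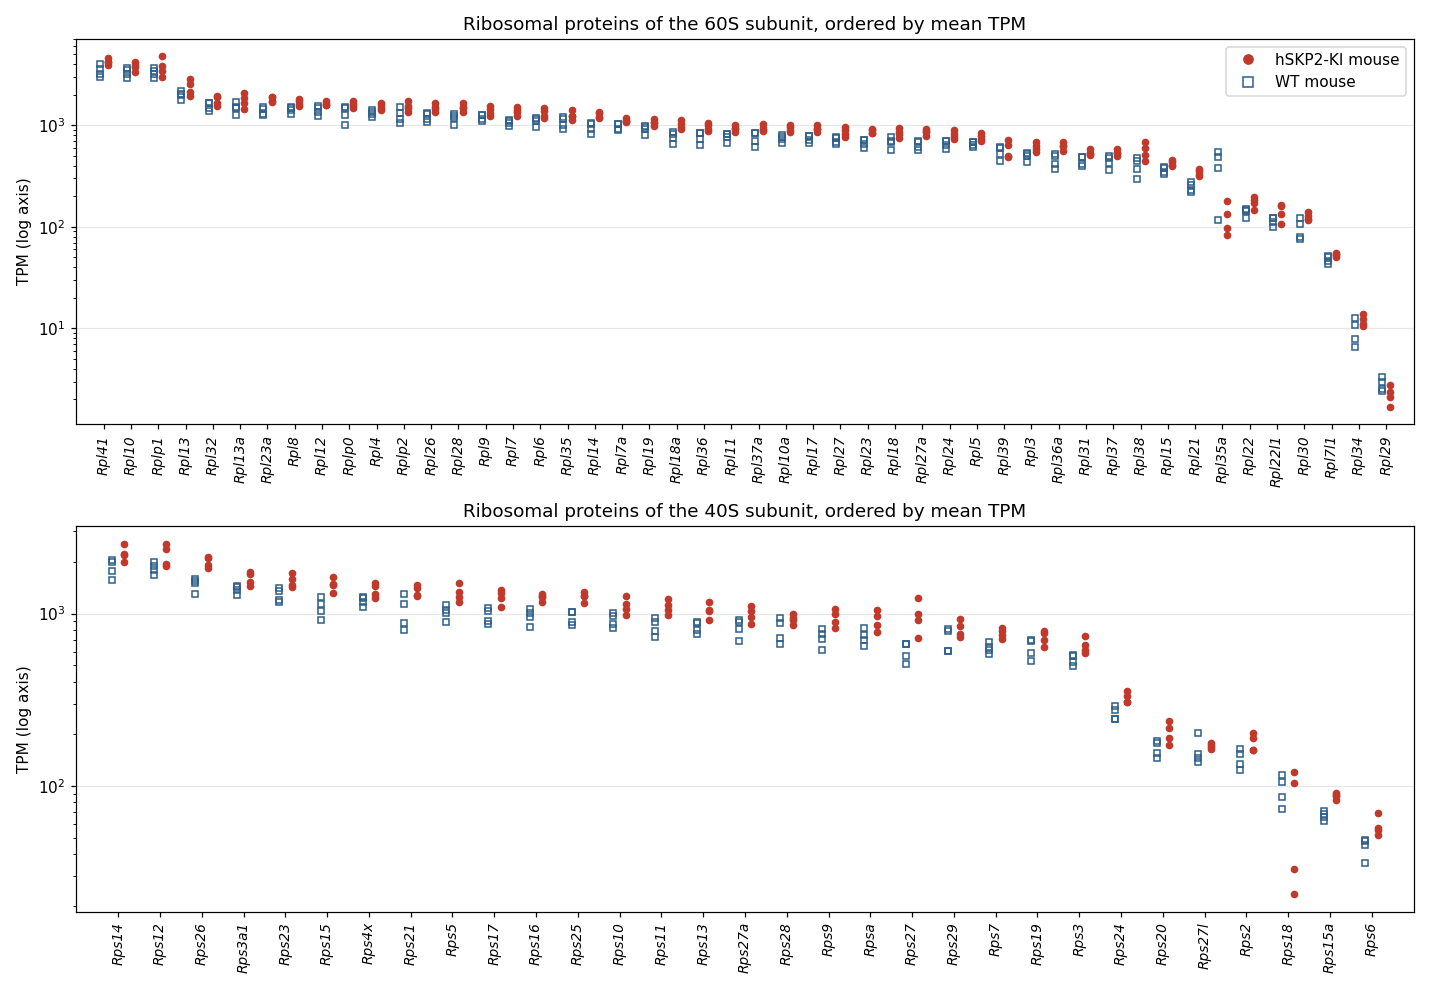
TPM (log axis) of 79 of the 80 tested ribosomal protein genes in each of 4 hSKP2-KI mice (filled circles) and 4 WT mice (open squares), 60S above and 40S below, ordered by mean TPM. Most members lie between 100 TPM and the highest value of 4752 TPM, with Rpl29, Rpl34 and Rps6 far below, and Rpl35a and Rps18 show the widest spread.

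In the TPM as deposited, ribosomal protein RNAs were slightly and broadly higher in hSKP2-KI prostates. With limma on log2(TPM + 1) and Benjamini-Hochberg adjustment over all tested genes, 44 of the 80 tested members rose and 1 fell at an adjusted p under 0.05. Over all tested genes 32.7% were called higher and 1.23% lower. The median log2 fold change of the members was 0.29 against 0.23 over all genes, and 77 of the 80 lay above 0 and 57 above the median of all genes. Most genes of any kind lay above 0 here, 11648 of the 13080 tested. The hSKP2-KI and WT mice did not overlap, with hSKP2-KI higher, for 43 members, where 34% of all genes behaved this way. Both subunits took part, with 25 of 48 tested 60S members higher (median 0.29) and 19 of 32 tested 40S members higher (median 0.30). The single member that fell was Rpl35a. In whole lobes, a change in the number of cells of a type cannot be told apart from a change in RNA per cell. The count of members called higher was 19 without hSKP2-KI replicate 1 (27.6% of all genes higher), 23 without hSKP2-KI replicate 2 (22.3%), 20 without hSKP2-KI replicate 4 (22%), 23 without WT replicate 2 (34.8%) and 18 without WT replicate 3 (22%). It was 41 without hSKP2-KI replicate 3 (26.7%), 37 without WT replicate 1 (21.7%) and 38 without WT replicate 4 (25.9%). As a share of the 80 tested members, it lay below that of all genes without hSKP2-KI replicate 1 or WT replicate 2. The members' share was only slightly above that of all genes without WT replicate 3 or hSKP2-KI replicate 4. It stood further above without any other single mouse. The excess with all mice, 55% of members against 32.7% of all genes, thus depended on single mice.

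After median-ratio scaling, 0 members were called higher and Rpl35a was again the only one called lower, where 6.64% of all genes were called higher and 4.76% lower. With an unadjusted limma p under 0.05 there were 3 members, Rps27, Rpl29 and Rpl35a, where 28.4% of all genes had one. The median log2 fold change of the members was 0.01 and 43 of 80 lay above 0, where 5978 of all 13080 tested genes did. No overlap between genotypes was seen in the higher direction for 0 members (9.68% of all genes) and in the lower direction for 2 members, Rpl29 and Rpl7l1 (9.93% of all genes). The median over all genes on this scale was -0.02. Quantile normalization and rescaling without the 20 most abundant genes also gave 0 members called higher, with medians of 0.06 and 0.05.

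**Figure D2:**
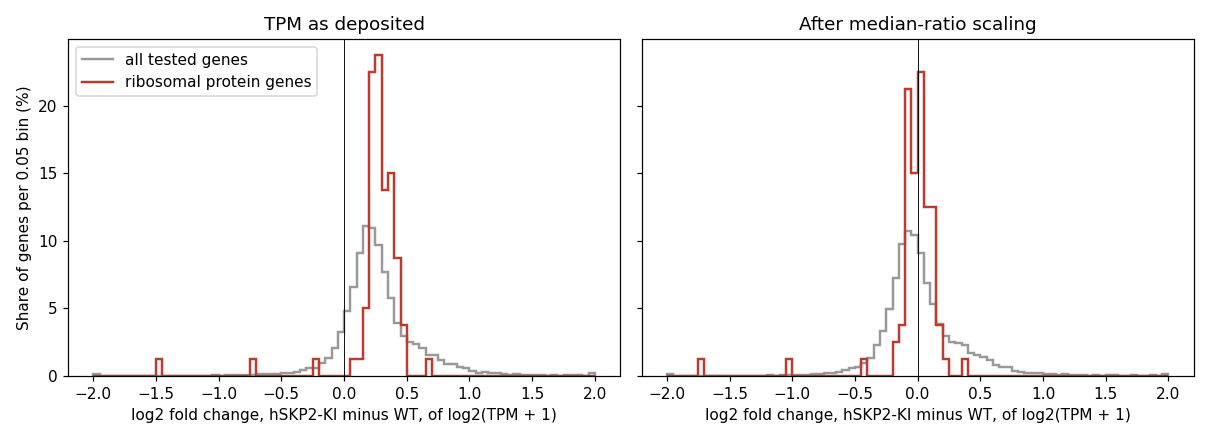
Distribution of the log2 fold change (hSKP2-KI minus WT, of log2(TPM + 1)) over the 80 tested ribosomal protein genes (red) and over all 13080 tested genes (grey), as the share of genes in each bin of 0.05, with values beyond -2 or 2 in the outermost bins. The members form a narrow peak near 0.29 as deposited and near 0.01 after scaling, and Rpl35a, Rps18 and Rpl29 lie apart on the left and Rps27 on the right.

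The summed level of the members shows the same in each mouse. The 84 members together took 9.63%, 8.76%, 7.90% and 8.59% of the TPM in the hSKP2-KI mice and 7.83%, 6.89%, 6.34% and 7.63% in the WT mice, so that the lowest hSKP2-KI mouse stood just above the highest WT mouse. After median-ratio scaling the sums were 90113, 78318, 71643 and 75206 in hSKP2-KI and 95486, 69897, 70781 and 81054 in WT mice. The groups then overlapped, and their means were 78820 ± 8008 and 79305 ± 11917 (SD, n = 4 each). Relative to the TPM outside Sbp, Spink1 and Sbpl, the members took 12.0% to 14.3% in hSKP2-KI and 11.6% to 14.1% in WT mice, which overlapped. The members largely moved as a block between mice of 1 genotype as well. As deposited, hSKP2-KI replicate 1 was the highest of the 8 mice for 63 of the 80 tested members and WT replicate 3 the lowest for 72. After scaling, WT replicate 1 was the highest for 63 members, and the lowest was WT replicate 2 for 33, WT replicate 3 for 23 and hSKP2-KI replicate 3 for 20. Over the 3160 pairs of members, the median correlation across the 8 mice was 0.89 as deposited and 0.84 after scaling, a description in which library depth and the scaling are shared by all members. The correlation also includes the difference between genotypes. Neither it nor the counts of highest and lowest mice are given here for other genes.

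As deposited, the summed markers of fibroblasts, smooth muscle, endothelial cells and macrophages stood higher in the same hSKP2-KI libraries. The share of all tested genes called higher was 32.7% as deposited and 6.64% after median-ratio scaling, and 1.23% and 4.76% were called lower. The summed TPM of 8 fibroblast markers was 821 to 1427 in hSKP2-KI and 444 to 644 in WT prostates, with 8 of 8 called higher as deposited and 3 of 8 after scaling. For 6 smooth muscle markers the sums were 3011 to 4624 and 2032 to 2564 (6 of 6 higher, 2 after median-ratio scaling and 5 called under each of the other scalings, quantile normalization and rescaling without the 20 most abundant genes), for 6 endothelial markers 37.0 to 63.8 and 22.6 to 32.1 (5 of 6 higher, 2 after scaling), and for 7 macrophage markers 212 to 433 and 93.5 to 193 (6 of 7 higher, 0 after scaling). Prostate epithelial markers, Sbp, Spink1, Sbpl and Pbsn included, summed to 323388 to 345715 TPM in hSKP2-KI and 415286 to 464439 TPM in WT prostates, and 3 of 10 were called higher and 2 lower as deposited, and 0 higher and 1 lower after scaling. Leukocyte sums were 31.2 to 64.4 and 19.4 to 54.9 TPM (1 of 7 tested higher, 0 after scaling), proliferation sums 66.6 to 80.7 and 43.2 to 66.0 TPM (2 of 6 higher, 0 after scaling), skeletal muscle sums 257 to 450 and 161 to 317 TPM (1 of 4 higher, 0 after scaling), and adipocyte sums 40.6 to 193 and 24.6 to 156 TPM (0 of 4 called). The leukocyte, skeletal muscle and adipocyte sums overlapped between the genotypes. No marker of these lists was listed at 0 in every mouse. The part of cell composition in the ribosomal protein levels was not tested.

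The balance between the subunits does not depend on how a library is scaled. The summed TPM of the 60S members divided by that of the 40S members was 1.69, 1.67, 1.68 and 1.65 in the hSKP2-KI mice and 1.72, 1.74, 1.74 and 1.72 in the WT mice. All 4 hSKP2-KI mice lay below all 4 WT mice, with means of 1.675 ± 0.0172 and 1.731 ± 0.0126 (SD, n = 4 each), a difference of -0.0556. No p is given for a sum over the members. Without Rpl35a the ratio was 1.671 ± 0.0166 and 1.716 ± 0.00835, and with the processed copies added to their genes 1.644 ± 0.0172 and 1.695 ± 0.0112 (SD, n = 4 each), again without overlap. In sums, 60S RNA was 1.20 times and 40S RNA 1.24 times as high in hSKP2-KI as in WT prostates with TPM as deposited, and 0.982 and 1.01 times as high after scaling. Such sums weigh the most abundant members most. The median log2 fold change was close in the 2 subunits, at 0.29 for 60S and 0.30 for 40S members as deposited. After scaling the medians were 0.0049 and 0.016. Whether the difference in ratio rests on a few abundant members was not tested.

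**Figure D3:**
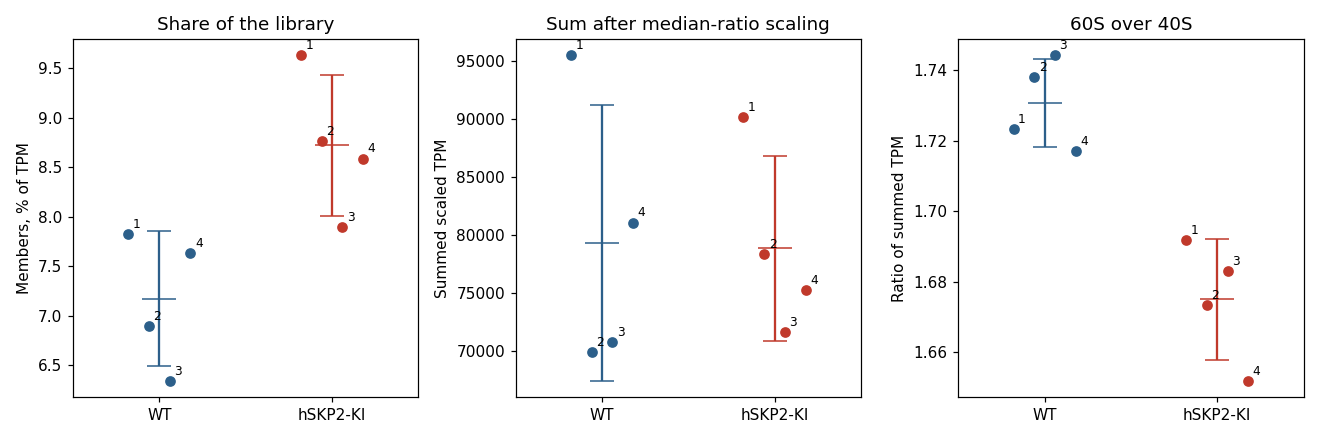
Ribosomal protein genes in each of 4 WT (blue) and 4 hSKP2-KI (red) mice, numbered by replicate, with the mean and SD of each group as bars: their share of the TPM (left), their summed TPM after median-ratio scaling (middle) and the ratio of summed 60S to 40S TPM (right). The axes do not start at 0. The share is higher in the hSKP2-KI mice, the scaled sums overlap, and the ratio is below 1.70 in the 4 hSKP2-KI and above 1.71 in the 4 WT mice.

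The proportions among members were nearly fixed. With each member expressed relative to the median member of the same mouse, its range over the 8 mice had a median of 0.24 on the log2 scale, 71 of 80 members stayed within 0.5, and 74 of 80 differed by less than 0.2 between genotypes. Only Rpl35a (2.96), Rps18 (2.39) and Rpl29 (1.21) had a range above 1, and Rps27 (0.76) and Rpl38 (0.62) came next among the members named here.

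**Figure D4:**
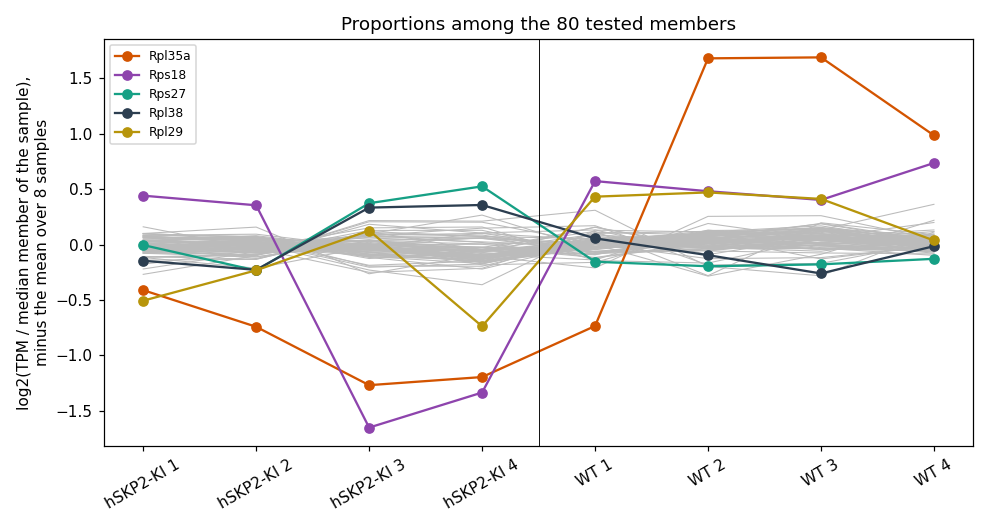
Level of each of the 80 tested members relative to the median member of the same mouse (log2), minus its mean over the 8 mice, with 5 members coloured and the others grey. The grey lines stay close to 0, Rpl35a is high in WT replicates 2 to 4, Rps18 is low in hSKP2-KI replicates 3 and 4, and Rps27 and Rpl38 are highest in those same 2 mice.

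Rpl35a (Entrez 57808, chr16:33056453-33060189) encodes a 60S protein whose human counterpart is mutated in some patients with Diamond-Blackfan anaemia. It was at 181, 133, 83.5 and 98.0 TPM in the hSKP2-KI mice and at 116, 539, 488 and 375 TPM in the WT mice. WT replicate 1 lay within the hSKP2-KI range, and the other 3 WT mice lay above every hSKP2-KI mouse. The log2 fold change was -1.46 (SE 0.42, limma adjusted p = 0.0243) as deposited and -1.74 (SE 0.41, limma adjusted p = 0.0267) after median-ratio scaling. The call rested on single mice, since the adjusted p as deposited was 0.0583 without hSKP2-KI replicate 3, 0.0561 without hSKP2-KI replicate 4, 0.0528 without WT replicate 2, 0.0647 without WT replicate 3 and 0.0517 without WT replicate 4. It was 0.00273 without WT replicate 1 and lay between 0.00273 and 0.0788 over the alternatives tried. After median-ratio scaling it was 0.0296 without hSKP2-KI replicate 1, 0.00431 without WT replicate 1, and between 0.053 and 0.0692 without any other single mouse. The tested genes on either side were read in the same libraries and showed no such fall. Lrch3 and Fyttd1 had log2 fold changes of 0.34 and 0.26, and Lmln and Osbpl11 of 0.06 and 0.39, as deposited. After scaling the 4 lay between -0.07 and 0.13.

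Rps18 (Entrez 20084, chr17:33951998-33955665), which encodes a protein of the head of the 40S subunit, varied within the knock-in group. It was at 120, 104, 23.5 and 32.6 TPM in the hSKP2-KI mice and at 106, 86.1, 73.3 and 116 TPM in the WT mice. Replicates 3 and 4 of hSKP2-KI were far below the 6 other mice, while replicates 1 and 2 lay within or just above the WT range. The genotypes were not called different, with a log2 fold change of -0.74 (SE 0.45, limma adjusted p = 0.20) as deposited and -1.02 (SE 0.48, limma adjusted p = 0.196) after scaling. The tested neighbours of Rps18 had log2 fold changes of 0.11 for B3galt4, 0.08 for Wdr46, 0.22 for Vps52 and 0.59 for H2-K1 as deposited, and of -0.15, -0.20, -0.06 and 0.31 after scaling.

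Rps27, which encodes a zinc-binding protein of the 40S subunit, had the highest fold change of the members. It was at 920.0, 726, 999 and 1238 TPM in the hSKP2-KI mice and at 667, 563, 512 and 665 TPM in the WT mice, without overlap. Relative to the median member of the same mouse, on the log2 scale, it was at -0.21, -0.44, 0.17 and 0.32 in the hSKP2-KI mice. The WT mice had -0.36, -0.40, -0.38 and -0.33, so hSKP2-KI replicate 2 lay below them and replicates 3 and 4 stood highest. The log2 fold change was 0.67 (SE 0.15, limma adjusted p = 0.00928) as deposited and 0.39 (SE 0.17, limma adjusted p = 0.165) after scaling, where the genotypes overlapped. Its retrocopy Rps27rt (chr9:114982366-114982739), whose sequence is 100% identical over 341 bases of the Rps27 mRNA, was at 78.0, 107, 39.7 and 37.1 TPM in hSKP2-KI and 57.1, 63.5, 38.1 and 55.6 TPM in WT mice. Within the hSKP2-KI group the retrocopy was lowest in the mice where Rps27 was highest, replicates 3 and 4, and the 2 rows together gave a log2 fold change of 0.65 as deposited (SE 0.13, limma adjusted p = 0.00631).

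Rpl38, a 60S protein known from the mouse for its part in the translation of Hox mRNAs, was at 513, 448, 598 and 678 TPM in hSKP2-KI and at 475, 372, 298 and 443 TPM in WT mice. The groups overlapped slightly, and the log2 fold change was 0.50 (SE 0.16, limma adjusted p = 0.0344), or 0.21 (limma adjusted p = 0.473) after scaling. The other members with the highest fold changes as deposited were Rpl21 (0.48), Rpl36a (0.47), Rps15 (0.45), Rps26 (0.43), Rps21 (0.42), Rpl27a (0.42), Rpl30 (0.41) and Rps25 (0.40), and each was called. Their proteins lie in different regions of the ribosome, with Rps26 near the mRNA exit and Rps15 in the head of the 40S subunit. After scaling these 8 members had log2 fold changes from 0.12 for Rps25 to 0.20 for Rpl21, and the adjusted p values reached from 0.271 to 0.658.

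At the other end, beside Rpl35a, Rps18 and Rpl29, stood members with small positive differences that were not called. Rpl39, a small protein of the exit tunnel, was at 583 ± 114 TPM in hSKP2-KI and 544 ± 78.5 TPM in WT prostates (SD, n = 4 each), a log2 fold change of 0.09 (-0.19 after scaling). Rps27l had 0.11, Rpl7l1 0.16, Rplp1 0.17, Rpl32 0.19 and Rpl7a 0.21, and after scaling these 5 members turned to values from -0.17 to -0.08. The paralog Rpl22l1 had 0.29 as deposited and 0.01 after scaling, and Rpl7l1 was at 50.7 to 54.8 TPM in hSKP2-KI and 42.7 to 51.2 TPM in WT mice.

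For some members most of the signal sat on a row other than the gene itself. The mRNAs of 83 members were aligned to the transcripts of the GENCODE M21 annotation, and 78 had at least 1 annotated copy with 95% identity over 150 bases or more. Such a copy had a row of its own for 19 members, and for 7 members a copy row with more than 1 TPM. Rps6, the 40S protein phosphorylated by S6 kinase downstream of mTORC1, was listed at 57.1, 52.0, 55.1 and 69.0 TPM in hSKP2-KI and 48.0, 45.2, 35.4 and 48.1 TPM in WT mice. The row of its processed copy Rps6-ps4 (chr2:75190995-75191854), identical over 750 bases, was at 2302, 2317, 2095 and 2184 TPM in hSKP2-KI and 1867, 1700, 1600 and 1890 TPM in WT mice. The Rps6 row thus held between 2.16% and 3.06% of the sum.

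The same was seen for 2 members of the 60S subunit. Rpl34 was listed at 12.0 ± 1.44 TPM in hSKP2-KI and 9.51 ± 2.81 TPM in WT prostates, while Rpl34-ps1 (chr6:71124589-71125001, 99.4% identity over 354 bases) was at 1593 ± 121 and 1150 ± 102 TPM (SD, n = 4 each). Rpl29 was listed at 2.13, 2.38, 2.77 and 1.69 TPM in hSKP2-KI and 3.29, 2.94, 2.53 and 2.45 TPM in WT mice, while Gm8210 (chr1:43189052-43189773, 99.4% identity over 483 bases) was at 1197, 1087, 1107 and 1085 TPM in hSKP2-KI and 974, 922, 859 and 1011 TPM in WT mice. Reads of such pairs cannot be told apart where the sequences are the same, and how multiply mapped reads were counted is not stated. Each parent row is therefore uncertain on its own. The sums of parent and copies had log2 fold changes of 0.34 for Rps6 (limma adjusted p = 0.0169), 0.47 for Rpl34 (limma adjusted p = 0.00586) and 0.25 for Rpl29 (limma adjusted p = 0.0364) as deposited, so Rpl29, at -0.23 on its own row, changed sign when its copy was added. After scaling, the copy rows on their own had log2 fold changes of 0.05 for Rps6-ps4, 0.18 for Rpl34-ps1 and -0.03 for Gm8210, and none was called. Rpl21, with the BC004004 row at 46.9 TPM added, kept a log2 fold change of 0.42. Rpl35a and Rps18 had 14 and 5 annotated copies and no copy row in the table.

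**Figure D5:**
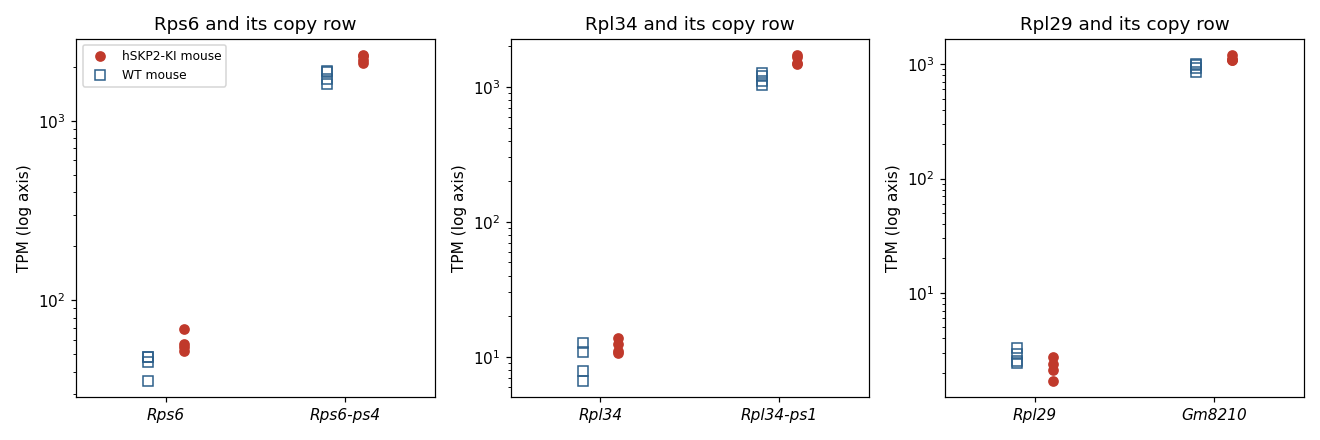
TPM (log axis) of Rps6, Rpl34 and Rpl29 and of the row of a near-identical processed copy of each, in 4 hSKP2-KI mice (filled circles) and 4 WT mice (open squares). Each copy row stands far above the row of the gene it derives from, as with Rps6-ps4 at 1600 to 2317 TPM against 35.4 to 69.0 TPM for Rps6.

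The ribosomal protein genes that the symbol rule does not reach were read in the same fit. Fau, which encodes a ribosomal protein fused to a ubiquitin-like sequence, had a log2 fold change of 0.35 (limma adjusted p = 0.0473). Rack1, the signalling scaffold of the 40S subunit, had 0.21 (limma adjusted p = 0.103), and Rpl36al, a paralog of Rpl36a, had 0.36 (limma adjusted p = 0.0277). After scaling the log2 fold changes of these 3 genes lay between -0.08 and 0.07, and none was called.

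Other genes of ribosome production and use were counted in the same fit. Over all tested genes, 32.7% were called higher and 1.23% lower as deposited (median 0.23), and 6.64% higher and 4.76% lower after scaling (median -0.02). Of 75 tested ribosome biogenesis genes, 11 rose and 0 fell as deposited with a median log2 fold change of 0.16, and 0 rose and 2 fell after scaling with a median of -0.11. Of 35 initiation factors, 11 rose and 0 fell (median 0.17), and 0 rose and 2 fell after scaling (-0.11). Of 11 elongation and termination factors, 1 rose, Eef1d (median 0.13), and 0 were called after scaling (-0.16). Of 19 other mRNAs with a TOP tract, such as Tpt1, Naca and Npm1, 11 rose (median 0.26), and 0 were called after scaling (-0.02). Of 15 chaperones and importers of ribosomal proteins 2 rose (median 0.16), of 15 genes of ribosome rescue 4 rose (0.18), and of 12 genes of the p53 and 5S RNP axis 2 rose, Trp53 and Gtf3a (0.23). After scaling 0 genes of these 3 lists rose, and 1, 0 and 1 fell. As deposited, 57.9% of the other TOP mRNAs were called higher, and 9.09% to 31.4% of each remaining list, below the share over all tested genes. In none of these lists was a gene called in the same direction both as deposited and after scaling.

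Of 22 tested genes of the mTORC1, LARP1 and MYC axis, 3 rose as deposited (median 0.18), and 0 rose and 1 fell after scaling (-0.09). The share called higher as deposited was 13.6%, against 32.7% of all tested genes. After scaling, 6.64% of all tested genes were called higher and 4.76% lower. Myc, the transcription factor named above, was at 28.8, 32.0, 30.8 and 29.6 TPM in hSKP2-KI and 28.1, 41.2, 29.7 and 29.6 TPM in WT mice. Its log2 fold change was -0.07 (limma adjusted p = 0.643) as deposited and -0.34 (limma adjusted p = 0.0376) after scaling. This call was lost with quantile normalization (limma adjusted p = 0.0609) and without the 20 most abundant genes (limma adjusted p = 0.085). Larp1 had 0.19 and -0.09, Mtor 0.04 and -0.22, Rps6kb1, the gene of S6 kinase 1, 0.11 and -0.15, and Eif4ebp1, the gene of the translation repressor 4E-BP1, -0.05 and -0.34 in the same order, and none of these 4 was called on either scale. Eif4ebp1 was called lower with quantile normalization (-0.29, limma adjusted p = 0.0252) and without the 20 most abundant genes (-0.30, limma adjusted p = 0.035).

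As a reference, 2 other families of short housekeeping mRNAs were read from the same fit. Called higher as deposited were 33.8% of the mitochondrial ribosomal protein genes and 63.1% of the respiratory chain genes. This share was 55% for the members and 32.7% for all tested genes. The members' share fell below that of all genes without hSKP2-KI replicate 1 or WT replicate 2. After scaling, 6.64% of all tested genes were called higher and 4.76% lower. Of 77 mitochondrial ribosomal protein genes, 26 rose as deposited with a median of 0.22, and 0 rose and 1 fell after scaling with a median of -0.05. Of 84 tested respiratory chain genes, 53 rose with a median of 0.31, and 0 were called after scaling with a median of 0.03. The respiratory chain thus stood near the cytosolic ribosomal protein genes on both scales, and no difference between the families was tested.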

How the data were processed

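RNA-seq libraries of 8 ventral prostates, 4 hSKP2-KI and 4 WT, 1 per mouse, were analysed by genotype from the labels. The authors trimmed and mapped paired-end reads in CLC software (version not given in the sources used here) and deposited TPM values per Entrez gene, and the submitters' processing notes name mm10 and GRCm38. TPM carries no counts, so depth and counting intervals are unknown. Genes that reached 1 TPM in 4 or more samples were fitted as log2(TPM + 1) with limma 3.58.1 (trend) in R 4.3.3, with Benjamini-Hochberg adjustment over 13080 genes and a threshold of 0.05. Fold changes are on that scale, which understates those of low genes. The procedure was tested on simulated data. Copies were found with blastn 2.17.0. Coordinates, promoter sequences and copy names are from RefSeq (GRCm38.p6). Figures were drawn with matplotlib 3.10.9.

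The members and lists were chosen with earlier results of these data known. Genes were named by rule: the 10 tested members with the highest and the 10 with the lowest log2 fold change, the 5 most and 5 least abundant, members called under both scalings, paralogs and ribosomal protein genes outside the symbol rule, up to 4 genes of each other list called under both scalings, and Skp2, Pbsn, Myc, Larp1, Mtor, Eif4ebp1 and Rps6kb1. Rps6, Rpl34, the copy rows, the neighbours, the genes whose start windows are shown, Sbp, Spink1, Sbpl and the other examples from the lists were named after their values were seen. A few genes that this rule would name are left out of the text. Snu13, Utp4 and Rps4l, which were in the lists, were not matched to a row. Same-numbered mice of the genotypes were treated as unpaired, since the labels state no pairing. The correlations of their deviations across genes were 0.22, -0.11, 0.17 and -0.01, which cannot settle whether mice were processed in pairs. Alternatives were a pseudocount of 0.1, other filters, 3 scalings, quality weights, a robust empirical Bayes step, a replicate block, added -ps rows and leaving out each mouse. The added -ps rows were those with -ps in the listed symbol. Rps6-ps4, listed under a LOC symbol, was not among them. Adding every copy row, scaling to the member median, the block with median-ratio scaling, the subunit ratio without Rpl35a or with copies, and leaving out each mouse for Rpl35a after scaling were chosen after seeing the data.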

Additional observations from a re-analysis of the deposited data

Results flagged for a closer look

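Among 86 groups of 4 mice, 4 values stood apart from the other 3 mice of their group by more than Dixon's 95% critical value of 0.829, a rate that chance gives in about 1 in 20 groups. Rpl3l was at 0.759 TPM in hSKP2-KI replicate 4 against 0.0911 to 0.167 TPM in the others of its group. Rpl39l was at 0.0999 TPM in WT replicate 3 and listed at 0 in the other WT mice, where any value above 0 would be flagged. Pbsn was at 174 TPM in hSKP2-KI replicate 4 against 93.0 to 97.8 TPM. Myc was at 41.2 TPM in WT replicate 2 against 28.1 to 29.7 TPM.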

How the results depend on the processing

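With TPM as deposited, 44 members were called higher, 1 lower, and their median log2 fold change was 0.29. The members called higher were 0 with median-ratio scaling, quantile normalization and rescaling without the 20 most abundant genes (6.64%, 5.42% and 6.82% of all genes), 18 without a filter (13.7%), and 18 to 41 with 1 mouse left out (21.7% to 34.8%). Without hSKP2-KI replicate 1 or WT replicate 2, a smaller share of the members than of all genes was called higher. The members called lower were 2 with quantile normalization (Rpl29 and Rpl35a), 0 without a filter and with the robust step, and 0 to 1 with 1 mouse left out. The median was 0.0090, 0.056 and 0.047 under these 3 scalings, and 0.23 to 0.33 with 1 mouse left out. Scaling to the member median removes a shared change by its construction, so its 0 members called higher and median of -0.048 do not show how the members depend on scaling. The subunit ratio difference stayed between -0.0612 and -0.0479 with 1 mouse left out, -0.0443 without Rpl35a and -0.0506 with copies added.

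The labels do not state whether replicate numbers pair the mice. In both genotypes the members' share of the TPM was highest in replicate 1 and lowest in replicate 3. With the replicate block 63 members (37.8% of all genes) were called higher and 1 lower, with the same median of 0.29, and with the block and median-ratio scaling 0 higher and 0 lower (median 0.0090, Rpl35a adjusted p = 0.0578).

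Signs that turned from positive to negative are given for median-ratio scaling, quantile normalization and rescaling without the 20 most abundant genes, in this order. They were -0.19, -0.14 and -0.16 for Rpl39, -0.17, -0.14 and -0.14 for Rps27l (-0.012 with quality weights), -0.12, -0.068 and -0.081 for Rpl7l1, -0.080, -0.076 and -0.043 for Rpl7a, -0.075, -0.089 and -0.038 for Rack1, -0.086, -0.044 and -0.050 for Larp1, -0.22, -0.22 and -0.19 for Mtor, and -0.15, -0.17 and -0.12 for Rps6kb1. With quantile normalization left aside they were -0.11 and -0.076 for Rplp1, -0.093 and -0.055 for Rpl32, -0.078 and -0.041 for Rpl10, and -0.058 and -0.021 for Rpl13, and -0.0022 for Rps14 with median-ratio scaling. Rpl29 turned to 0.25 with all copies added. With 1 mouse left out, Rpl39 ranged from -0.017 to 0.17, Mtor from -0.035 to 0.145, Eif4ebp1 from -0.097 to 0.0038 and Myc from -0.12 to 0.054. The cause was not tested. Unknown depth and the handling of multiply mapped reads limit the rows of members with copies.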
